A study of Mus musculus with 127 samples.

Results

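Heat shock chaperones are proteins that bind unfolded protein and help it to refold. The genes described here are 10 of the 23366 gene symbols measured, taken by name: Hspa1a and Hspa1b (the stress-inducible HSP70 proteins), Hspa8 (the constitutive HSP70), Dnajb1 (a J-protein that delivers clients to HSP70), Hsph1 (HSP110) and Bag3 (nucleotide exchange factors of HSP70), Hsp90aa1 (the inducible cytosolic HSP90), Hspd1 and Hspe1 (HSP60 and HSP10, the mitochondrial chaperonin) and Hspb1 (the small heat shock protein HSP25). The members are described by their level in every mouse, cell type and time of a culture course, as CPM (counts scaled to the same total in every library).

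Bulk polyadenylated RNA, amplified as cDNA by SMART-seq2, came from 3 populations of mouse bone marrow told apart by surface markers: long-term stem cells (LT), short-term stem cells (ST) and multipotent progenitors (MPP). The course with ligand used 100 ng/ml lipopolysaccharide and 1 ug/ml Pam3csk4, ligands of the Toll-like receptors Tlr4 and Tlr2, and sampled 4 mice (young 1, 2 and 3, old 2) at 0, 0.5, 1, 2, 4, 8 and 12 h. The course without ligand used the medium alone and sampled 2 other mice (young 4, old 4) at 0, 2, 4 and 8 h. Ages are given only as young and old, and strain and genotype are not given in the sources used here. The 0 h libraries were read as the state before exposure in all 6 mice. Each mouse went through 1 course only, so course and mouse cannot be told apart, and the columns of the count table name a date or run that also follows the mouse.

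The 108 libraries, 1 per mouse, cell type and time, held 990801 to 11764630 counts (median 4200713). A library detected 6241 to 14096 genes. Counts per library had a median of 4517621 in the 84 libraries of mice with ligand and 2142171 in the 24 libraries of mice without. A level of 0 CPM allows for up to 3 counts, which is 0.255 to 3.03 CPM depending on the library, for counting error only. At 0 h Slamf1, a marker of LT, stood at 29.6 ± 27.9 CPM in LT and 0.897 ± 1.04 CPM in MPP (SD, n = 6 mice). Flt3, a marker of MPP, stood at 394 ± 326 CPM in MPP and 48.2 ± 45.5 CPM in LT. Between LT and MPP both markers therefore lay on the labelled side, with a wide spread between mice. In ST Slamf1 stood at 2.42 ± 5.94 CPM and Flt3 at 185 ± 159 CPM. The stem cell markers Hlf and Procr did not set LT apart from ST. Hlf stood at 92.5 ± 94.5 CPM in LT and 147 ± 165 CPM in ST, and Procr at 59.9 ± 81.8 and 65.8 ± 65.2 CPM. The 6 neutrophil granule markers (S100a8, S100a9, Ngp, Camp, Ltf, Lcn2) were present in every mouse and differed between them, from 0.00248 to 0.2% of counts in young mouse 3 to 4.4 to 7.86% in young mouse 1. Summed levels of the other marker lists had medians between 14.7 and 404 CPM across cell types and courses (erythroid, B cell, T and NK cell, megakaryocyte, macrophage and stromal). The part of these cells in the results below was not tested. In bulk RNA, fewer cells of a type and less RNA per cell cannot be told apart.

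In unstressed cells the transcription factor HSF1 is held inactive by chaperones. When unfolded protein draws the chaperones away, HSF1 forms trimers, binds heat shock elements near gene starts and drives chaperone transcription. Returning chaperones then switch HSF1 off again, so the response is known as a transient one. A heat shock element is a row of GAA units in alternating orientation. The bases before the gene starts were searched for these letters because the members are known as targets of this factor. Promoter windows of 8 of the 10 members were found in RefSeq (build GRCm38.p6; 250 bases before to 50 after the start). No window was found under the symbols Hsp90aa1 and Hspa8 in the set of promoters used. The sequences below show the bases before the start, 5′ to 3′ on the strand of the gene, with matches to 2 adjoining units (GAANNTTC or TTCNNGAA) in capitals. They lie at chr17:34972157-34972406 (Hspa1a, minus strand), chr17:34959239-34959488 (Hspa1b, minus strand), chr5:135887669-135887918 (Hspb1, plus strand) and chr5:149636337-149636586 (Hsph1, minus strand). The last one, at chr1:55088008-55088127 on the plus strand, is a stretch of 120 bases between the starts of Hspe1 and Hspd1, which are transcribed away from each other.
Hspa1a: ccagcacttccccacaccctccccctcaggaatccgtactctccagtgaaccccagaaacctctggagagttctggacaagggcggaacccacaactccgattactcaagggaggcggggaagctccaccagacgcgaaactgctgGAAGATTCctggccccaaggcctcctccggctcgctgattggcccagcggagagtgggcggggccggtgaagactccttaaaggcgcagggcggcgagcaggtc
Hspa1b: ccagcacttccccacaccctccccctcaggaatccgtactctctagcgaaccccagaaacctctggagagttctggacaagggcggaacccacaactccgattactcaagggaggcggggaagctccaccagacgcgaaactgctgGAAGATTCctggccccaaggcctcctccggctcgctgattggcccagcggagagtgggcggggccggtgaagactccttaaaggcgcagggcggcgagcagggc
Hspb1: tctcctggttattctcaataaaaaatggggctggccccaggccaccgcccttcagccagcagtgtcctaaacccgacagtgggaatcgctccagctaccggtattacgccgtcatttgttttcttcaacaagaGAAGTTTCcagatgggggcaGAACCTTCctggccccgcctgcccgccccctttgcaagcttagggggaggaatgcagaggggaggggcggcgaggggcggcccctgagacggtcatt
Hsph1: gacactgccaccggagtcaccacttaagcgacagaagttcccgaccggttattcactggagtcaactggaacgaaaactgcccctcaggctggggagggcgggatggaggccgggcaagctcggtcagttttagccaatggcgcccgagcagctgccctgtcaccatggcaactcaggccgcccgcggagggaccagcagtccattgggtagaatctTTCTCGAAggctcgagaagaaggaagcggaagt
Hspe1 and Hspd1: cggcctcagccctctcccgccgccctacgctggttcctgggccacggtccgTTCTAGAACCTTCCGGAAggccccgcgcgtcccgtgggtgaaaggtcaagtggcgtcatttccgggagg

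The 250 bases before Hspa1a and Hspa1b were 98.8% identical. They differed at 3 positions, counted from 1 at the 5′ end, with the base of Hspa1a first: C44T, T47C and T249G. Both held GAAGATTC at -104 to -97, where -1 is the last base before the start. In the stretch between Hspe1 and Hspd1 the adjoining matches formed 1 longer row, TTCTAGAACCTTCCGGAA, and the windows of these genes shared 285 bases. Hspb1 held GAAGTTTC at -117 to -110 and GAACCTTC at -97 to -90. Hsph1 held TTCTCGAA at -33 to -26, and TTCTGGAAAGTTC after its start at 37 to 49. Bag3 held GAAGTTTC after its start at 43 to 50. Neither window of Dnajb1, nor the other window of Hspd1, held these letters. In all, 7 of the 8 members held 2 adjoining units in a window, against 17.0% of the 27025 genes in the table. Rows of 3 units (GAANNTTC followed by NNGAA, or TTCNNGAA followed by NNTTC, each of which contains 2 overlapping matches of 2 units) were held by Hspd1, Hspe1 and Hsph1, 3 of 8 members, against 0.662% of genes. The 2-unit letters are their own reverse complement and the 3-unit letters are each other's, so both strands were searched. A match describes the letters and not the binding of a factor.

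The inducible HSP70 genes went from near 0 at 0 h to at least 196 CPM at 2 h, within the first hours of culture, with ligand and without it, in all 3 cell types. Hspa1a and Hspa1b are near-identical copies between which reads can be split, so their summed level is given first. In LT at 0 h it was 0, 12.0 and 3.28 CPM in young mice 1, 2 and 3 and 2.24 CPM in old mouse 2. The mice of the course without ligand stood at 21.6 CPM (young mouse 4) and 13.97 CPM (old mouse 4) at 0 h. After 1 h with ligand the level in LT was 1337.5, 640.3 and 1236 CPM in the 3 young mice and 387 CPM in old mouse 2. After 2 h it was 549, 196, 1879 and 607 CPM in the same order, and without ligand it was 1544 CPM in young mouse 4 and 563 CPM in old mouse 4. Every LT library at 2 h lay above every one at 0 h.

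In ST the sum at 0 h was 0, 10.7, 5.85 and 18.5 CPM in young mice 1, 2 and 3 and old mouse 2, and 12.5 and 20.5 CPM in young mouse 4 and old mouse 4. At 2 h it was 853, 263, 1688 and 399 CPM with ligand and 2337.5 and 717 CPM without. In MPP the sum at 0 h lay between 3.61 and 15.7 CPM in all 6 mice. At 2 h it was 892, 330.0, 919 and 322 CPM in MPP with ligand and 1089 and 3101 CPM without. The groups at 0 and 2 h did not overlap in ST or MPP either. In mice with ligand, 7 of the 12 courses (4 mice, 3 cell types) had their highest sum at 1 h, 3 at 2 h, 1 at 0.5 h and 1 at 4 h.

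The later hours differed between mice and between courses. At 8 h with ligand the sum in ST was 0, 41.7, 14.9 and 8.15 CPM, within the 0 h range of 0 to 20.5 CPM in all but young mouse 2. In LT at 8 h it was 0 CPM in young mice 1 and 2, but 1475 CPM in young mouse 3 and 779 CPM in old mouse 2. The libraries of young mice 1 and 2 there detected only 6241 and 7547 genes, against 11962 in that of old mouse 2. In that of young mouse 1, Dnajb1 and Hsph1 also stood at 0.341 CPM each, against 198 and 80.8 CPM at 0 h. Whether transcripts were missed in these libraries was not tested. At 12 h the LT library of young mouse 3 held 0.262 CPM and that of old mouse 2 still 782 CPM. In MPP at 8 h the sum was 286, 14.1, 32.5 and 83.6 CPM. Without ligand at 8 h it was 355 and 585 CPM in LT, 1087 and 120.3 CPM in ST and 1529 and 855 CPM in MPP. All 6 libraries without ligand thus stood above their own 0 h level at 8 h. The plot of the summed level in every mouse shows these courses.

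**Figure D1:**
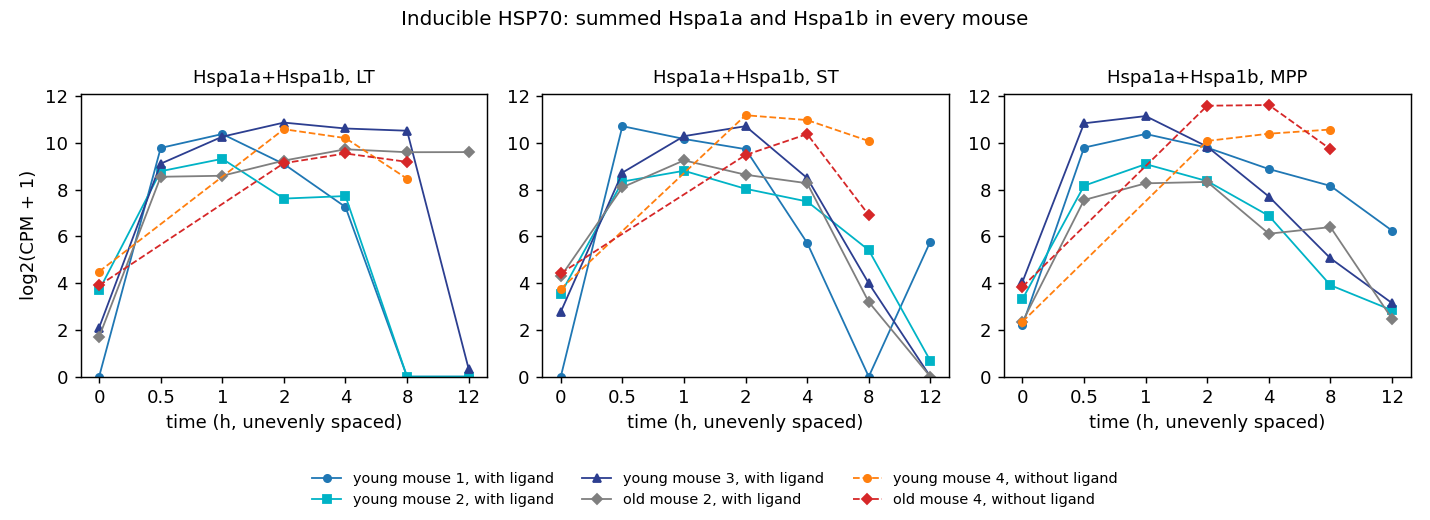
Summed level of Hspa1a and Hspa1b, as log2(CPM + 1), against time in culture (0 to 12 h, unevenly spaced axis) in LT, ST and MPP, with 1 line per mouse, solid with ligand and dashed without. All lines climb between 0 and 2 h, and at 8 h the ST lines with ligand lie between 0 and 41.7 CPM while both dashed ST lines stay at 120.3 CPM or more.

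Nearly all reads of the pair were assigned to Hspa1a. In the 78 libraries with at least 100 counts of the pair, Hspa1b took a median of 3.13% of them (0 to 20.1%). The median share was 2.58% with ligand and 7.53% without. Since the copies can share reads, this split is uncertain.

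The tests were made with edgeR's quasi-likelihood F test, with p-values adjusted by Benjamini-Hochberg over all genes, and a change is called when the adjusted p is under 0.05. With ligand, each time was compared with 0 h over young mice 1, 2 and 3. Hspa1a differed by 7.66 ± 2.19 on the log2 scale (SE, n = 3 mice) in LT at 2 h, with an adjusted p of 0.17, and was not called. It was called in 0 of 18 such contrasts. A contrast that takes the plain mean of the change with ligand (4 mice) and that without (2 mice) was added after the data had been seen. It weights the courses equally, so each mouse without ligand counts for more than each mouse with it. In it Hspa1a rose in 8 of 9 contrasts (2, 4 and 8 h in 3 cell types). At 2 h the log2 change was 7.07 ± 1.49 in LT, 7.01 ± 1.48 in ST and 7.63 ± 1.54 in MPP, higher in 6 of 6 mice each, with adjusted p of 0.00375, 0.00377 and 0.00228. At 8 h it was 6.16 ± 1.42 in LT (adjusted p = 0.00847, higher in 4 of 6 mice) and 5.98 ± 1.40 in MPP (adjusted p = 0.0119, higher in 6 of 6), while in ST it was 3.52 ± 1.21 and did not pass (adjusted p = 0.153). With levels near 0 at 0 h, these fitted folds depend on the prior count and are less certain than the levels themselves.

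In the averaged contrast 29 of 90 tests of a member passed, all of them higher. The 10 genes were chosen with earlier results of these data known. The shares of all genes given beside the counts are therefore a description and not a test of the members as a set. At 2 h 3 members rose in LT, 4 in ST and 5 in MPP, of 10 tested, where 0.84, 0.868 and 0.805% of the 14401 genes tested were higher. At 4 h 4 members rose in each cell type, against 1.12, 0.924 and 1.05% of genes in LT, ST and MPP. The median log2 change of the 10 members at 4 h was 0.618, 0.185 and 0.414 in the 3 young mice with ligand. Without ligand it was 2.14, 3.26 and 3.25, so a rise in the average at 4 h need not hold in each course. At 8 h 2 rose in LT and 3 in MPP, against 1.02 and 0.958% of genes, and 0 in ST, against 0.778%. The median log2 change of the 10 members at 2 h was 2.07, 2.31 and 2.75 in LT, ST and MPP, and that of all genes tested was -0.11, -0.07 and -0.08. In ST at 8 h, where no member passed, the unadjusted p was under 0.05 for 6 members, of which Hspd1 was lower (-0.72 ± 0.27) and the others higher. The calls depended on the mice without ligand: with young mouse 4 left out 2 of the 90 tests passed (0.183% of all gene tests), with old mouse 4 left out 6 (0.268%) and with old mouse 2 left out 18 (0.56%). Both calls left without young mouse 4 were of Hsp90aa1. Left out in turn, young mice 1, 2 and 3 gave 45, 31 and 21 calls, against 2.13, 0.658 and 1.13% of gene tests. With mouse as a block the averaged contrast gave 37 calls of 90, all higher, against 1.84% of gene tests higher: the 8 added were Hspa1b in ST at 2 h (adjusted p = 0.0403), Hspb1 in ST at 2 and 4 h, Hsph1 in ST at 2 h and in MPP at 2 and 4 h, Hspd1 in MPP at 2 h and Hspa8 in ST at 8 h.

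**Figure D2:**
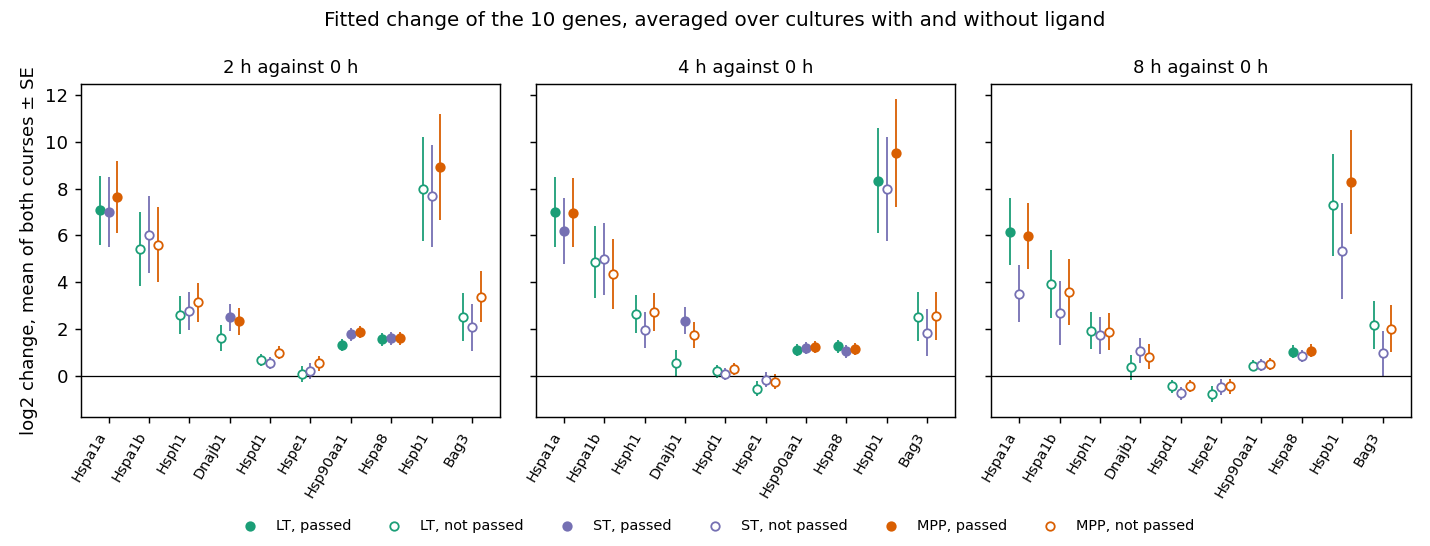
Fitted log2 change from 0 h at 2, 4 and 8 h for the 10 genes in LT, ST and MPP, averaged over courses with and without ligand, with bars of 1 SE; filled points passed edgeR's test and open points did not. At 2 h Hspa1a, Hsp90aa1 and Hspa8 passed in all 3 cell types, and Hspd1 and Hspe1 lie nearest to 0.

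Hspa8, which carries the basal folding load of the cytosol and strips clathrin from vesicles, was already abundant at 0 h and rose from there. At 0 h it stood between 2937 and 4558 CPM in all 18 libraries. In ST at 1 h with ligand it was 7596, 6020.2 and 11945 CPM in young mice 1, 2 and 3, against 2937, 3204 and 3198 CPM in the same mice at 0 h. This was the only call of the 180 tests of a member with ligand (log2 change 1.65 ± 0.35, adjusted p = 0.00992, higher in 3 of 3 mice), in a contrast where 0.3% of 13678 genes passed. Across the 18 contrasts 0.267% of gene tests passed (0.095 to 0.446% in single contrasts), and 63 of the 180 member tests had an unadjusted p under 0.05. Leaving out young mouse 1 or young mouse 2 ended this call and left 0 of 180, and without young mouse 3 there were 2. With mouse as a block 8 of the 180 tests passed: Hspa8 at 1 and 2 h in each cell type, and Hsp90aa1 at 1 h in LT and ST. The block called 0.751% of gene tests over the 18 contrasts and 0.402 to 0.804% of genes in these 6.

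With ligand the highest Hspa8 level was at 1 h in 6 of the 12 courses and at 2 h in the other 6. By 4 h in ST it stood at 2175, 3529, 3518 and 3155.5 CPM with ligand, while without ligand it stood at 10461.5 and 11565 CPM. In MPP at 4 h it was 3029, 4266, 3483 and 3640.3 CPM with ligand, against 10157 CPM in young mouse 4 and 18361 CPM in old mouse 4. The 2 courses did not overlap in ST or MPP at 4 or 8 h. In LT they did overlap at 4 h, where old mouse 2 with ligand held 15125 CPM, above both mice without ligand (7773.5 and 8489.6 CPM). At 8 h in LT the levels were 2289.5, 3166.5, 6029.6 and 6689 CPM with ligand and 9148 and 11994 CPM without.

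In the averaged contrast Hspa8 rose in 8 of 9 contrasts, by 1.57 ± 0.27, 1.62 ± 0.27 and 1.62 ± 0.27 at 2 h in LT, ST and MPP (adjusted p = 2.52e-04, 1.53e-04 and 1.33e-04, higher in 6 of 6 mice each). At 4 h it rose in all 3 cell types, though in MPP only 3 of 6 mice were higher than at 0 h, both mice without ligand among them. At 8 h it rose in LT and MPP (adjusted p = 0.0222 and 0.0196), with 4 of 6 and 3 of 6 mice higher. The remaining contrast, ST at 8 h, had an adjusted p of 0.0996, and of 0.0168 with mouse as a block. Without ligand alone Hspa8 rose in MPP at 4 h (2.26 ± 0.45, adjusted p = 0.0111) and 8 h (2.19 ± 0.45, adjusted p = 0.0133), higher in both mice. The change of Hspa8 with ligand minus that without was -2.18 ± 0.54 at 4 h and -2.19 ± 0.54 at 8 h in MPP. In ST at 4 h it was -1.69 ± 0.53, where the change without ligand alone was 1.91 ± 0.45. No such difference was called in the main edgeR fit. By these estimates the averaged rise of Hspa8 in MPP at 4 and 8 h and in ST at 4 h came mostly from the mice without ligand.

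Hsp90aa1, which matures kinases and steroid receptors and is known to hold HSF1 in check, rose in the first hours in all 3 cell types. In ST at 0 h it was 399, 465 and 275 CPM in young mice 1, 2 and 3, 327 CPM in old mouse 2, and 219 and 357.5 CPM in young mouse 4 and old mouse 4. At 2 h it was 528, 865, 785.5 and 803 CPM in ST with ligand and 1174 and 1266 CPM without. In MPP at 0 h it was 402, 481, 455 and 505 CPM with ligand and 254 and 465 CPM without. At 2 h these became 868, 964, 1115 and 877 CPM with ligand and 1146 and 2078 CPM without. In both cell types every library at 2 h lay above all at 0 h, and both libraries without ligand lay above all 4 with ligand.

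Hsp90aa1 rose at 2 h in the averaged contrast by 1.35 ± 0.25 in LT, 1.78 ± 0.26 in ST and 1.87 ± 0.26 in MPP (adjusted p = 7.12e-04, 5.80e-06 and 2.07e-06, higher in 6 of 6 mice each). The calls in ST and MPP at 2 h were the only ones of the 29 that passed under all 14 alternative settings. It also rose at 4 h in all 3 cell types (1.11 ± 0.25, 1.20 ± 0.25 and 1.25 ± 0.25 in LT, ST and MPP, higher in 6, 4 and 5 of 6 mice). At 8 h it did not pass in any. The change at 4 h without ligand was 2.19 ± 0.42 in ST and 2.24 ± 0.42 in MPP. The change with ligand minus that without was -1.975 ± 0.498 and -1.976 ± 0.498, and neither was called in edgeR (adjusted p = 0.508 and 0.259). With mouse as a block the adjusted p was 0.0606 in ST and 0.0467 in MPP. By these estimates the averaged rise of Hsp90aa1 in ST and MPP at 4 h came mostly from the mice without ligand. With ligand its highest level was at 1 h in 7 of the 12 courses, at 2 h in 4 and at 4 h in 1. Without ligand, where 2 h was the first time sampled after 0 h, it was highest at 2 h in all 6 courses. An earlier peak could not be seen there. Without ligand alone it rose in ST and MPP at 2 and 4 h, by 2.29 ± 0.42 and 2.38 ± 0.42 at 2 h (adjusted p = 0.00877 and 0.00418). These 4 calls and the 2 of Hspa8 were the 6 of 90 that passed without ligand, in contrasts where 0.0208 to 0.236% of 14401 genes passed. Over all 9 contrasts 0.12% of gene tests passed. Leaving out young mouse 4 or old mouse 4 left 0 of these 90, with 1 mouse in the course, while leaving out young mouse 1 left 19 and leaving out old mouse 2 left 11. With mouse as a block 12 of 90 passed, against 0.55% of gene tests: Hsp90aa1 in LT at 2 h (adjusted p = 0.0416) and Hspa8 in LT at 8 h and in ST and MPP at all 3 times joined Hsp90aa1 in ST and MPP at 2 and 4 h.

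**Figure D3:**
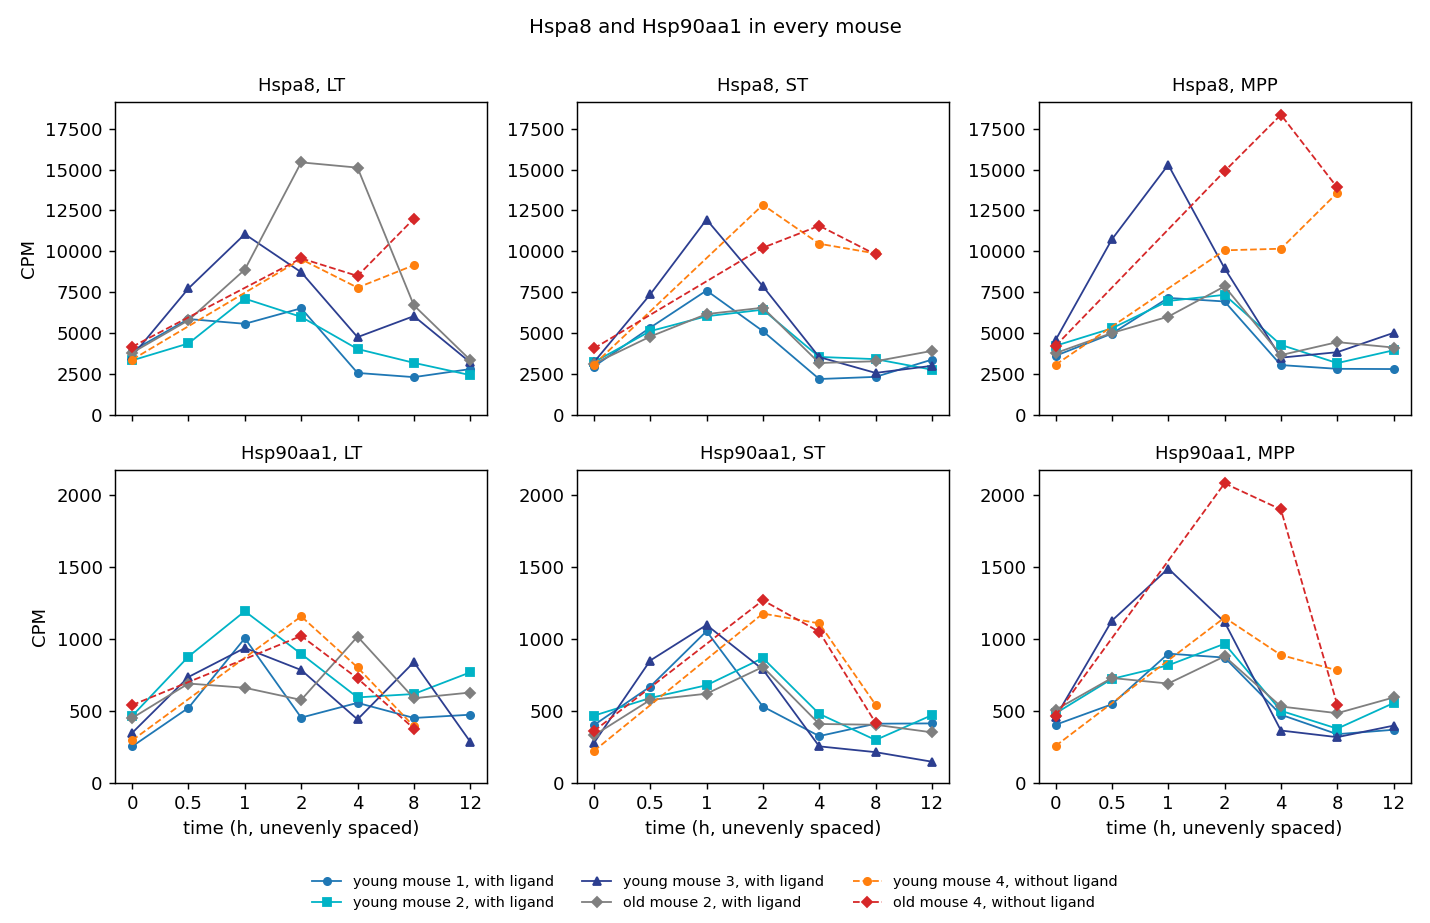
CPM of Hspa8 (upper row) and Hsp90aa1 (lower row) against time in culture in LT, ST and MPP, with 1 line per mouse, solid with ligand and dashed without. In ST and MPP the solid Hspa8 lines are at 4435 CPM or less at 8 h and the dashed lines at 9805.5 CPM or more.

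Dnajb1, the J-protein that stimulates the ATPase of HSP70, was highest early in the course with ligand. With ligand 8 of the 12 courses were highest at 0.5 h and 4 at 1 h. In ST at 0.5 h it was 536, 515 and 692 CPM in young mice 1, 2 and 3 and 448 CPM in old mouse 2, against 57.0, 88.5, 68.0 and 92.1 CPM in the same mice at 0 h. In MPP at 0.5 h it was 515, 356.5, 1369 and 289 CPM, against 106, 91.7, 100.3 and 88.7 CPM at 0 h. Every library at 0.5 h lay above every one at 0 h in both cell types. Over the 3 young mice the log2 change at 0.5 h was 3.06 ± 0.81 in ST and 2.99 ± 0.81 in MPP, with adjusted p of 0.204 and 0.252 (unadjusted 4.10e-04 and 5.15e-04), so neither was called. In the averaged contrast, which has no 0.5 h, Dnajb1 rose in ST by 2.52 ± 0.58 at 2 h (adjusted p = 0.01) and by 2.37 ± 0.57 at 4 h (adjusted p = 0.0161). In MPP it rose by 2.34 ± 0.57 at 2 h (adjusted p = 0.0217). In LT it was 1.62 ± 0.55 at 2 h (adjusted p = 0.259). At 4 h without ligand it was 422 and 767 CPM in ST, where both mice were at their highest, against 46.8 to 199 CPM with ligand. Without ligand Dnajb1 was highest at 2 h in 4 of 6 courses and at 4 h in 2, with no libraries at 0.5 or 1 h.

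Hsph1, the HSP110 partner of HSP70 in taking apart aggregates, was low at 4 h in ST and MPP with ligand and high without it. At 0 h it lay between 44.8 and 116 CPM in all 18 libraries. In MPP at 4 h it was 113, 129, 74.8 and 93.8 CPM with ligand and 1419 and 2293 CPM without. In ST at 4 h it was 30.6, 45.5, 84.5 and 90.4 CPM with ligand and 1111 and 913 CPM without. With ligand it was highest at 1 h in 6 of 12 courses, and its largest value there was 813 CPM in MPP of young mouse 3. Hsph1 passed in 0 of 9 averaged contrasts, with the lowest adjusted p in MPP at 2 h (log2 change 3.15 ± 0.84, adjusted p = 0.0504). With mouse as a block it passed in ST at 2 h and in MPP at 2 and 4 h (adjusted p = 0.0426, 0.0202 and 0.0346). Hsph1 passed in 5 of 9 averaged contrasts in DESeq2 (2.07% of all gene tests higher) and in limma voom (3.93%). It also passed in 5 of 9 with no low-count filter (0.605%) and with each cell type in its own fit (1.98%). In LT at 2 h with ligand its values were 44.5, 0 and 316 CPM in the young mice, and the sign of its change there (0.82 ± 1.15, adjusted p = 0.983) turned to -1.61 without young mouse 3 and to -3.50 in limma voom.

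Bag3, which links HSP70 to selective autophagy, passed in no contrast in the main edgeR fits. With each cell type in its own fit Bag3 passed in 2 of 9 averaged contrasts (1.98% of all gene tests higher). It passed in 5 of 9 in limma voom (3.93%) and in 1 of 9 in DESeq2 (2.07%). It lay between 0.172 and 34.9 CPM at 0 h. At 2 h in MPP it was 67.2, 23.7, 43.3 and 30.6 CPM with ligand and 23.1 and 168 CPM without, higher than at 0 h in 6 of 6 mice. Its largest averaged change, 3.39 ± 1.08 in that contrast, had an adjusted p of 0.206 and an unadjusted p of 0.00283.

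Hspb1, an ATP-independent small chaperone that holds unfolded clients, was at 0 CPM in 12 of the 18 libraries at 0 h and at most 6.97 CPM in the others. In MPP at 4 h it was 1.43, 13.3, 10.2 and 5.54 CPM with ligand and 97.0 and 133 CPM without. In LT at 4 h it was 34.0, 28.4, 101.4 and 125 CPM with ligand and 49.4 and 102.5 CPM without. The courses were apart in MPP at 4 h and overlapped in LT. In the averaged contrast Hspb1 rose in MPP at 2, 4 and 8 h (adjusted p = 0.0337, 0.0176 and 0.042) and in 1 contrast of LT, at 4 h (adjusted p = 0.0425). Its fitted log2 changes of 8.34 ± 2.24 in LT and 9.51 ± 2.31 in MPP at 4 h rest on levels near 0 at 0 h and depend on the prior count. With ligand its highest level was at 4 h in 5 of 12 courses and at 2 h in 4.

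The mitochondrial chaperonin genes had the 2 smallest averaged log2 changes of the 10 at 2 h in each cell type, and with ligand their levels at 8 h lay under those at 0 h in all 3 cell types in young mice 1, 2 and 3. Hspd1 encodes the barrel that encloses unfolded matrix proteins and Hspe1 its lid, and they share the promoter stretch shown above. In ST Hspd1 was 311, 403 and 293 CPM in young mice 1, 2 and 3 and 379 CPM in old mouse 2 at 0 h, and 215, 125, 71.8 and 96.1 CPM at 8 h. All 4 mice were lower at 8 h and the times did not overlap. Without ligand Hspd1 in ST was 240.4 and 408 CPM at 0 h, 501 and 736 CPM at 2 h, and 288 and 206 CPM at 8 h. Without ligand Hspd1 was highest at 2 h in all 6 courses, the first time sampled there after 0 h. With ligand the highest level was at 0.5 h in 4, at 1 h in 5, at 2 h in 2 and at 4 h in 1 of 12. The course without ligand has no libraries at 0.5 or 1 h, so these peak times cannot be compared between courses. Over the 3 young mice with ligand the log2 change at 8 h was -1.21 ± 0.47 in LT, -1.20 ± 0.47 in ST and -1.14 ± 0.47 in MPP, with adjusted p of 0.374, 0.579 and 0.981, so none was called.

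Hspe1 in MPP was 116, 189.9, 112 and 171 CPM at 0 h with ligand and 40.6, 66.6, 51.8 and 50.7 CPM at 4 h, without overlap between the times. Without ligand it was 81.0 and 148 CPM at 0 h and 110.0 and 218 CPM at 4 h in MPP. In the main edgeR fits Hspe1 passed in no contrast of either course and in none of the averaged ones. In limma voom it was called higher in 1 of 9 averaged contrasts (3.93% of all gene tests higher). The log2 change of Hspe1 at 2 h with ligand was -0.67 ± 0.48 in LT, -0.76 ± 0.48 in ST and -0.18 ± 0.48 in MPP. Hspd1 averaged over both courses was 1.01 ± 0.27 in MPP at 2 h (adjusted p = 0.051, and 0.0187 with mouse as a block, higher in 6 of 6 mice).

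**Figure D4:**
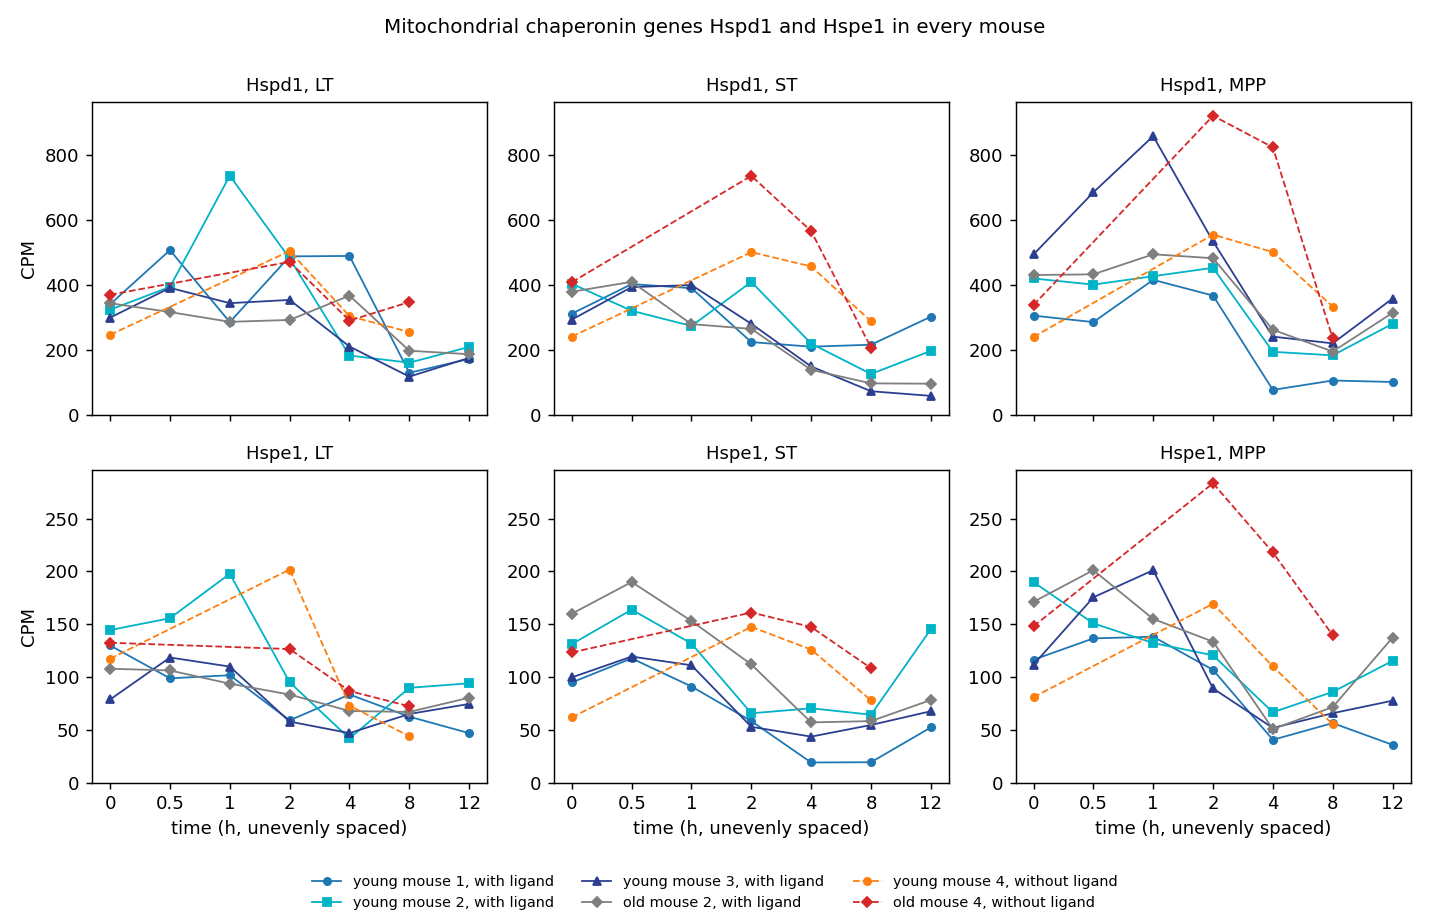
CPM of Hspd1 (upper row) and Hspe1 (lower row) against time in culture in LT, ST and MPP, with 1 line per mouse, solid with ligand and dashed without. In ST the solid Hspd1 lines run from 293 to 403 CPM at 0 h down to 71.8 to 215 CPM at 8 h, and the dashed lines are highest at 2 h.

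The fall after the first hours was compared directly as 8 h against 2 h over the 3 young mice with ligand. None of the 30 tests of a member passed in edgeR, where 0.0171% of gene tests passed (0.0292, 0.0146 and 0.00731% in LT, ST and MPP). The unadjusted p was under 0.05 in 11 of them, all lower at 8 h, and DESeq2 called 4, against 2.97% of gene tests. With mouse as a block 3 passed: Hspa8 fell in ST and MPP (log2 differences of -1.27 ± 0.35 and -1.33 ± 0.35 without the block, adjusted p = 0.0129 and 0.00443 with it) and Hsp90aa1 fell in MPP (-1.59 ± 0.40, adjusted p = 0.0479 with the block). The block called 0.21% of gene tests, 0.205% in ST and 0.154% in MPP. The values were lower at 8 h in 3 of 3 mice for each.

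The changes with ligand were then set against those without. At 4 h both libraries without ligand stood above all 4 with ligand for 9 of the 10 genes in ST and for 9 in MPP, but for 1 in LT. The same held for 6.86, 6.88 and 7.28% of the 14401 genes tested in ST, MPP and LT. At 2 h the counts were 4 in LT, 6 in ST and 7 in MPP, against 7.72, 7.28 and 8.67% of genes. At 8 h they were 2, 8 and 8, against 6.71, 6.55 and 7.85%. Before culture, at 0 h, they were 0, 1 and 1, against 5.54, 6.09 and 8.44%. The exception at 4 h in both ST and MPP was Bag3.

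**Figure D5:**
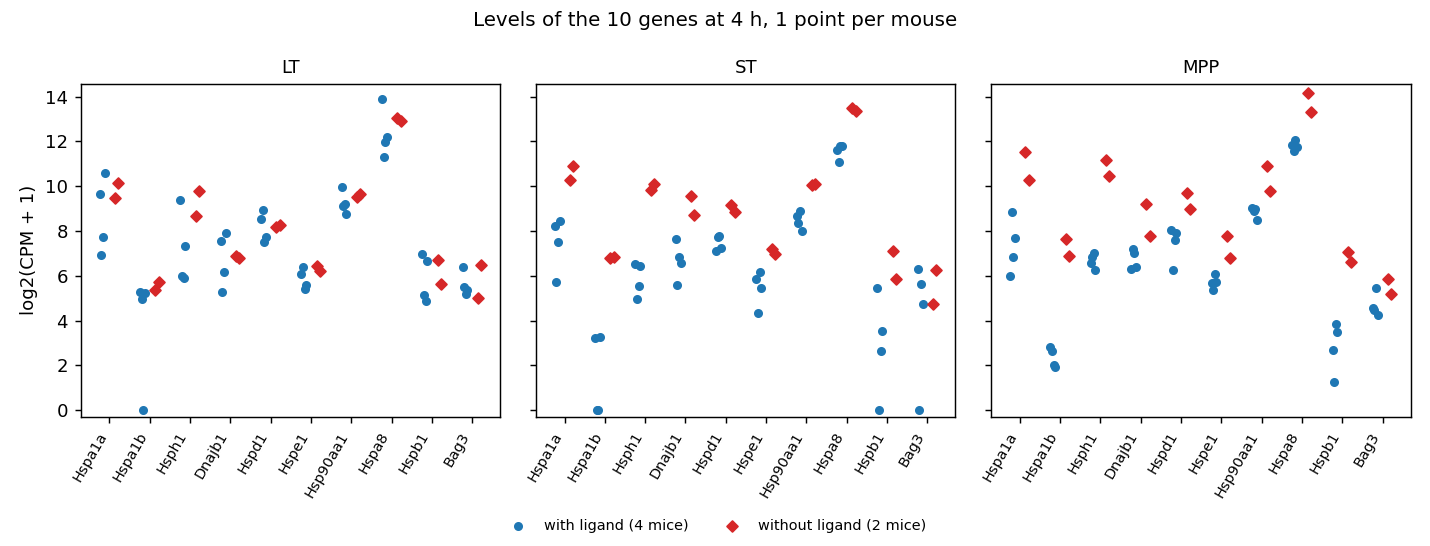
Level of the 10 genes at 4 h in LT, ST and MPP as log2(CPM + 1), with 1 point per mouse, circles with ligand (4 mice) and diamonds without (2 mice). Heights compare mice within a gene, not genes with each other; in ST and MPP the diamonds lie above the circles for 9 of 10 genes.

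The test of the difference itself, the change from 0 h with ligand minus that without, passed for 0 of 90 member tests in edgeR, where 0.027% of gene tests passed (0 to 0.0903% in single contrasts). The unadjusted p was under 0.05 in 27, each with the smaller change on the side with ligand, and DESeq2 called 16 (1.29% of gene tests) and limma voom 6 (0.875%). In MPP at 4 h the difference was -2.18 ± 0.54 on the log2 scale for Hspa8 (adjusted p = 0.228), -1.98 ± 0.50 for Hsp90aa1 (adjusted p = 0.259) and -2.35 ± 0.54 for Hspd1 (adjusted p = 0.109). With mouse as a block, which called 0.1% of gene tests, these 3 passed (adjusted p = 0.0192, 0.0467 and 0.0385), with 0.0903% of genes called, as did Hspa8 in MPP at 8 h (adjusted p = 0.00714), with 0.292%. Each of these comparisons rests on 2 mice without ligand. The mice also differed in their marker levels: the 10 stem and progenitor markers (Kit, Ly6a, Procr, Slamf1, Mecom, Hlf, Fgd5, Cd34, Flt3, Cd48) summed to 228 to 844 CPM in the ST libraries without ligand and to 588 to 4494 CPM in those with ligand, and in MPP to 283 to 1006 CPM and 796 to 3811 CPM. Fgd5 was at 0 in all ST libraries without ligand and Slamf1 in all MPP libraries without ligand. The neutrophil granule markers summed to 14959.5 to 62796 CPM in ST without ligand and to 106 to 66031 CPM with it. The part of these differences in the result was not tested.

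Of 180 tests of a difference in change between LT, ST and MPP over 3 mice, 0 passed in edgeR and 6 had an unadjusted p under 0.05, while DESeq2 called 6, against 1.81% of gene tests in that tool. Over all genes 0.000406% of tests passed in edgeR, with 0% in 17 of these 18 contrasts and 0.00731% in the change of LT minus ST at 12 h. At 0 h, over young mice 1 to 4, 8 members were tested and 0 of 24 tests passed, with 1 unadjusted p under 0.05, that of Dnajb1 in LT minus ST (0.81 ± 0.35, adjusted p = 1). Hspa1b and Hspb1 were too low to be tested there. DESeq2 and limma voom called 0 of these as well. Over all genes 0% passed in edgeR and limma voom and 0.168% in DESeq2.

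Between ages at 0 h 0 of 30 tests passed in edgeR, 0 had an unadjusted p under 0.05, and 0% of genes passed. DESeq2 and limma voom also called 0. The comparison has 2 old mice, which limits it. For the 6 members with higher levels (Hspa8, Hsp90aa1, Hspd1, Hspe1, Dnajb1 and Hsph1) the log2 differences, old minus young, lay between -0.49 ± 0.45 for Dnajb1 in LT and 0.52 ± 0.33 for Hsp90aa1 in LT. For Hspa1a, Hspa1b, Hspb1 and Bag3 the standard errors were 1.36 to 2.66, so that differences of that size were not detectable. After 0 h each course has 1 old mouse, so age was not tested there. In LT at 8 h the HSP70 level of the old mouse with ligand lay above those of young mice 1 and 2, whose libraries detected few genes, as given above. Young mouse 3 also stood above them at 8 h.

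The wider chaperone system was read from 10 lists with 78 genes, chosen with earlier results of these data known, of which 72 were tested with ligand and 73 without. With ligand Dnaja1, another J-protein of HSP70, stood in ST at 372 ± 25.6 CPM at 0 h and 989.9 ± 136 CPM at 1 h (SD, n = 3 mice; log2 change 1.60 ± 0.35, adjusted p = 0.0141) and also rose in MPP at 1 h (1.61 ± 0.35, adjusted p = 0.019). Without ligand Dnaja1 rose in ST at 4 h and in MPP at 2 and 4 h. Fkbp4, a co-chaperone of HSP90 in steroid receptor complexes, fell in LT at 8 h (-2.20 ± 0.49, adjusted p = 0.0229) and in ST at 12 h (-2.21 ± 0.49, adjusted p = 0.0184) with ligand. St13, the HSP70 co-chaperone Hip, rose in MPP at 8 h without ligand (2.28 ± 0.52, adjusted p = 0.0265) and is named after its value was seen. In either course 7 of the lists had 0 calls in edgeR: HSF factors and regulators, other cytosolic HSP70 and HSP110 genes, other HSP90 genes, small heat shock proteins, mitochondrial chaperones, the TRiC chaperonin and prefoldin. At 2 h, over the 3 cell types with and without ligand (6 contrasts), the median log2 change of the 14 J-proteins ran from 0.28 to 0.94, that of the 6 other HSP70 and HSP110 genes from 0.03 to 0.92 and that of the 9 other heat-inducible genes from 0.35 to 1.46. It ran from 0.09 to 0.45 for the 8 TRiC genes, from 0.10 to 0.39 for the 5 mitochondrial chaperones, from -0.19 to 0.70 for the 16 co-chaperones and from -0.31 to 0.67 for the 2 other HSP90 genes. For prefoldin (5 genes) it ran from -0.26 to 0.75, for the HSF factors (3) from -0.74 to 0.56 and for the small heat shock proteins (4 or 5) from -2.47 to 1.16. The median of all genes tested ran from -0.33 to 0.00 and that of the 10 members from 1.25 to 3.82.

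Together the 10 genes took a median of 0.455% of all counts at 0 h in mice with ligand (0.39 to 0.586%, 12 libraries) and 0.462% in mice without (0.372 to 0.539%, 6 libraries). At 1 h with ligand the median was 1.08% (0.801 to 2.16%), and at 8 h 0.411% (0.305 to 0.938%). Without ligand it was 1.45% at 2 h (1.26 to 2.39%), 1.53% at 4 h (1.1 to 2.75%) and 1.34% at 8 h (1.07 to 1.73%). The share at 8 h did not overlap between the courses. Most of it was Hspa8: without that gene the medians were 0.108% at 0 h and 0.353% at 1 h with ligand, and 0.469% at 2 h and 0.221% at 8 h without. With Hspa8 left out the shares at 8 h did overlap. They were 0.0502 to 0.335% with ligand (median 0.0891%) and 0.12 to 0.376% without.

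Over the 108 libraries the level most like that of Hspa1a plus Hspa1b among 8849 other genes with a mean of at least 10 CPM was that of Atf4 (Pearson's r of log2(CPM + 1) 0.708), followed by Atf3 (0.694) and Jun (0.693), and r was 0.657 for Dnaja1. Atf4, Atf3 and Jun are transcription factors induced by stress and stimulation. Among the members r was 0.748 for Hspa8, 0.732 for Hspb1, 0.684 for Dnajb1, 0.668 for Hsp90aa1, 0.615 for Hsph1, 0.447 for Bag3, 0.423 for Hspd1 and 0.178 for Hspe1. These values describe libraries that share mice, times and depth, and carry no test. Hspe1 had the lowest r of the 8.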

How the data were processed

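The values are expected counts by gene symbol, which the authors made with RSEM against mm9, per the submitters' processing notes. Version, annotation and strand setting are not given in the sources used here. Of its values 89.5% were whole. Of 127 libraries, 6 with 7 to 41 counts were dropped. Repeats were added up per mouse, cell type and time, then rounded to whole counts, leaving 108 libraries. CPM was computed from the total count of each library. Columns of the table were tied to mice through the times and repeats that each mouse has in the labels. Labels at 0 h were read as the state before exposure in every course.

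Counts were tested with edgeR 4.0.16 in R 4.3.3 (TMM scaling, low-count filter by group, quasi-likelihood F test, Benjamini-Hochberg adjustment over all genes within each contrast, threshold 0.05), in 1 fit of 63 libraries of young mice 1 to 3 with ligand (13678 genes), 1 of 72 libraries of both courses at 0, 2, 4 and 8 h (14401 genes), 1 of 12 libraries at 0 h by cell type (11568 genes) and 1 of 18 libraries at 0 h by age (12983 genes). edgeR gives no SE, so the SE of a log2 change was taken as its absolute value divided by the square root of its F statistic. It is approximate, above all where levels are near 0. The code was tested on simulated data. Alternatives were DESeq2 1.42.0, limma 3.58.1 with voom and sample quality weights, DESeq2 size factors, other low-count filters, mouse as a block, a fit per cell type, the first repeat in place of the sum, young mouse 4 added at 0 h, and each mouse left out. Cell types of 1 mouse come from the same animal, so mouse pairs the samples. Same-mouse deviations had mean correlations of 0.183, 0.0631 and 0.390 in young mice 1, 2 and 3, against -0.123, -0.0501 and -0.199 with other mice. Nothing says that repeats beyond the mouse were separate cultures.

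The genes and lists were chosen with earlier results of these data known. The contrast averaged over both courses was added after the data had been seen. The text names all 10 members, and of the other lists the genes called in the most contrasts, up to 3 a list, with St13 named outside this rule. The results of 1 gene that this rule names are not reported here. Promoter sequences come from RefSeq (GRCm38.p6), a build other than that of the counts, and were used only for the letters before gene starts.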

Additional observations from a re-analysis of the deposited data

Results flagged for a closer look

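In 5 of 30 groups of 4 young mice at 0 h, 1 library lay far from the other 3. All 5 were of genes at or near 0 before culture. In 3 of them the other 3 libraries were all at 0, so that any count would stand apart, and the rate of about 1 in 20 that chance gives does not apply. Hspa1b stood at 2.04 CPM in LT of young mouse 2 and at 5.252 CPM in ST of young mouse 4. Hspb1 stood at 6.97 CPM in LT of young mouse 2, at 1.218 CPM in ST of young mouse 3 and at 0.2489 CPM in MPP of young mouse 3, the last of these under what 3 counts give. The lowest library of each group was at 0 CPM.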

How the results depend on the processing

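Shares in brackets are of all gene tests under the same setting, without tests whose adjusted p DESeq2 gave as NA. With ligand, 1 of 180 member tests passed in edgeR (0.267%), 30 in DESeq2 (2.98%), 33 in limma voom (4.26%), 8 with no low-count filter (0.209%), 2 with a mean of at least 5 CPM (0.41%), 8 with mouse as a replicate block (0.751%), 12 with each cell type in its own fit (0.845%), 11 with young mouse 4 added at 0 h (0.416%), and 0 to 2 with a mouse left out. From 2 to 8 h, 0 of 30 passed in edgeR (0.0171%), 4 in DESeq2 (2.97%), 3 in limma voom (1.32%), 3 with the replicate block (0.21%), 2 with each cell type in its own fit (0.231%), and 0 to 2 with a mouse left out. Between cell types, 0 of 180 passed in edgeR (0.000406%) and 6 in DESeq2 (1.81%). Without ligand, 6 of 90 passed in edgeR (0.12%), 34 in DESeq2 (2.25%), 28 in limma voom (3.26%), 14 with no filter (0.113%), 12 with the replicate block (0.55%), 22 with each cell type in its own fit (0.866%), and 0 to 19 with a mouse left out. With minus without ligand, 0 of 90 passed in edgeR (0.027%), 16 in DESeq2 (1.29%), 6 in limma voom (0.875%), 2 with no filter (0.0294%), 4 with the replicate block (0.1%), 5 with each cell type in its own fit (0.239%), and 0 to 1 with a mouse left out. Averaged over both courses, 29 of 90 passed in edgeR (1.09%), 50 in DESeq2 (48 higher, 2 lower; 5.1%), 44 in limma voom (9.71%), 37 with the replicate block (2.48%), 22 with DESeq2 size factors (0.951%), and 2 to 45 with a mouse left out. The comparisons at 0 h gave 0 under each setting run. The cause of these differences was not tested. Of the 29 averaged calls, only those of Hsp90aa1 in ST and MPP at 2 h passed under all 14 alternatives. The call of Hspb1 in LT at 4 h passed under the fewest, 7 of 14. A further tally covered 60 single-gene tests and left out the averaged contrast. Of 780 alternatives for the 60 tests, 703 kept direction and side of the threshold and 62 passed only under the alternative. Another 6 passed only in the main setting, and 9 turned in sign. Those were Hsph1 in LT at 2 h with ligand, -3.50 in limma voom and -1.61 to 1.353 with a mouse left out (lowest without young mouse 3); Hspd1 in ST at 2 h, from -0.02 to 0.019 in limma voom, 0.048 with no filter, 0.001 with a mean of at least 5 CPM, 0.2 with the first repeat, 0.075 with young mouse 4 added and -0.123 to 0.199 with a mouse left out; and Hspe1 in MPP at 2 h, -0.19 to 0.005 with a mouse left out. DESeq2 size factors moved the members' median log2 change by -0.251 to 0.178, by over 0.1 in 29 of 72 contrasts, and changed the sign of 0 of 36 called values. At 0.255 to 3.03 CPM for 3 counts, levels of Hspa1b and Hspb1 at 0 h are at the limit of the depth.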
